A study of Mus musculus with 22 samples.

Results

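Regulatory T cell genes were followed through cells sorted from mouse breast tumors. The 8 genes, Foxp3, Ikzf2, Il2ra, Tnfrsf18, Tnfrsf4, Tnfrsf9, Ccr8 and Klrg1, were taken by symbol and matched to Ensembl identifiers, and all 8 of the 41388 genes listed in each count file passed the filter on low counts. All mice were C57BL/6, carried Osx-cre and the Ai9 (TdTomato, TdT) reporter, and were given as postnatal day 56. The cre is driven by the Sp7 (Osterix) promoter of a transgene that doxycycline can silence. TdT thus marks a history of promoter activity and not Sp7 expression at the time of the sort. The study reports giving doxycycline until weaning in all experiments after its first, without restating it for the sequenced mice. Under that diet the marked history would begin after weaning. The 4 wild type mice had no further allele, and the 6 Cdh2-cKO mice also carried conditional deletion of Cdh2 (N-cadherin), which the same cre drives. The labels call the tumors orthotopic MMTV-BO1, whereas the series description calls them subcutaneous. Stromal cells were sorted by TdT and by CD45, the pan-leukocyte surface protein encoded by Ptprc, into TdT single positive (TdT+;CD45-), double positive (TdT+;CD45+), CD45 single positive (TdT-;CD45+) and double negative (TdT-;CD45-) cells. Each genotype gave 2 TdT single positive libraries and 3 libraries of each other population, 22 in all, with replicates given as biological. Cell preparations were kept for sequencing when their RNA integrity passed, and the sources used here do not say which libraries came from the same mouse.

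Regulatory T cells are CD4+ T cells that restrain other lymphocytes, and they often accumulate in tumors. Foxp3 encodes the transcription factor that defines the lineage and Ikzf2 encodes Helios, a partner factor that stromal cells can also express. Il2ra encodes CD25, the high-affinity chain of the IL-2 receptor, through which these cells take up IL-2 made by other T cells. Tnfrsf18 (GITR), Tnfrsf4 (OX40) and Tnfrsf9 (4-1BB) are costimulatory receptors of the TNF receptor superfamily, Ccr8 is a chemokine receptor carried by regulatory T cells in tumors, and Klrg1 is an inhibitory receptor that binds cadherins on neighbouring cells. Several of these receptors are also expressed by activated conventional T cells, NK cells or myeloid cells, so only Foxp3 is close to lineage-restricted.

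In the build used for the counts (GRCm38), Foxp3 (ENSMUSG00000039521) lies on chrX:7579676-7595243 on the forward strand and Il2ra (ENSMUSG00000026770) on chr2:11642792-11693191, also forward. Tnfrsf4 (ENSMUSG00000029075, chr4:156013843-156016612) and Tnfrsf18 (ENSMUSG00000041954, chr4:156026164-156028895) are forward-strand neighbours separated by 9551 bases, and Tnfrsf9 (ENSMUSG00000028965, chr4:150914562-150946102) lies 5.07 Mb away on the same chromosome. Ccr8 (ENSMUSG00000042262, chr9:120092133-120094906) is on the forward strand, whereas Klrg1 (ENSMUSG00000030114, chr6:122270596-122282882) and Ikzf2 (ENSMUSG00000025997, chr1:69531214-69687245) are on the reverse strand. Exons of Foxp3 share bases with Ppp1r3f, Flicr and Ccdc22, those of Tnfrsf18 with Gm16008, and those of Ikzf2 with Gm29114. Flicr lies on the same strand as Foxp3 and the others on the opposite strand of the member. Reads in bases shared with Flicr were ambiguous and uncounted, and so were those shared with the others unless strand was used, which the sources used here do not state, so the levels of these 3 genes are uncertain to that extent.

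The promoters of 4 members whose levels rose and fell together across the libraries are given as the 250 bases before the start on the forward strand, from RefSeq on GRCm38.p6. Capitals mark GGAAA, the core of NFAT sites, or its complement TTTCC. The 4 are those whose window lies outside the exons counted for the gene and before its start in the files. RefSeq entries were found for 6 of the 8 members, and not for Ikzf2 and Klrg1.
Foxp3, chrX:7579426-7579675: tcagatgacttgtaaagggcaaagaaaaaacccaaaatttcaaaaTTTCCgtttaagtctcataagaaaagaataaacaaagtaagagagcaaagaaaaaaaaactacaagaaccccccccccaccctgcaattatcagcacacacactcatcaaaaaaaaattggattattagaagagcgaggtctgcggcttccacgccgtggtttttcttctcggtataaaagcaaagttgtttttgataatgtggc
Il2ra, chr2:11642542-11642791: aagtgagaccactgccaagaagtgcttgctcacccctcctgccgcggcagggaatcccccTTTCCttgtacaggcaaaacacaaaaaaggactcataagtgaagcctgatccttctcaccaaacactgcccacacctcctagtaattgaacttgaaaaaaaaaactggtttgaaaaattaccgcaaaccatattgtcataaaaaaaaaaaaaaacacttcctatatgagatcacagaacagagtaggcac
Tnfrsf4, chr4:156013445-156013694: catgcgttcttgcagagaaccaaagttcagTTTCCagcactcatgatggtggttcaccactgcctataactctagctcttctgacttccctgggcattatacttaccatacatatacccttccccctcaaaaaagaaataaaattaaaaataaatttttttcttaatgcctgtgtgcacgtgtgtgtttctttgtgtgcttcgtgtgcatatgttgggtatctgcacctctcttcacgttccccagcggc
Ccr8, chr9:120091883-120092132: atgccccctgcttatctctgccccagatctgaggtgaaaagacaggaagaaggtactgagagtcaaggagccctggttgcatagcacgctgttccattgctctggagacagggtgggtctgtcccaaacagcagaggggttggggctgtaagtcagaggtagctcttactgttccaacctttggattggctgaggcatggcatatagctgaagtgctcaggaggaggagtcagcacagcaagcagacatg
GGAAA was found in 3 of these 4 windows, against 55.6% of 32851 RefSeq promoter windows of the same length. STAT (TTCNNNGAA), RUNX (TGTGGT), forkhead (TGTTTAC) and kappa B motifs were found on neither strand of the 4 windows, and were held by 7.02%, 14%, 3.17% and 0.356% of all windows. RefSeq gave Foxp3 a second window, chrX:7580233-7580482, past the gene's start in the files and not shown, which held a STAT match (TTCCAAGAA). A Tnfrsf18 and a Tnfrsf9 window that are not shown also held a STAT match. These are matches of letters and no site was measured.

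The libraries held 16594228 to 26784003 counts over genes (median 18977040), so 3 counts, taken as the limit of detection, corresponded to 0.103 to 0.201 normalized CPM (counts per 1000000 counts of the library, scaled by TMM factors). Ptprc separated the sorts, with 472 to 1821 CPM in the 12 CD45+ libraries and 2.45 to 337 CPM in the 10 CD45- libraries, the highest of the latter in double negative wild type replicate 3. CD45 single positive wild type replicate 2 stood apart from the other CD45+ libraries. It held 514 CPM of Cd3e, the T cell receptor subunit used here to scale T cell transcripts, against 1.60 to 89.6 CPM in the other 11, and the summed level of 5 B cell markers was 3474 CPM against at most 21.75 CPM in all other libraries. Both libraries are given beside the results that rest on them. Sp7 had at most 1 count in any library. Cdh2 did not follow the labels: double negative libraries labelled Cdh2-cKO held 12.5, 18.4 and 14.2 CPM and wild type ones 6.02, 7.47 and 4.52 CPM. The TdT single positive libraries labelled Cdh2-cKO held 17.2 and 13.1 CPM of Cdh2 and the wild type ones 9.14 and 5.19 CPM. The counts cover the whole gene and not the deleted part alone, and no direction between genotypes below rests on the deletion having been verified.

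Foxp3 was present in both CD45+ sorts and low in CD45- libraries. It was counted in 19 of 22 libraries. Wild type double positive libraries held 5.65, 14.9 and 34.4 CPM of Foxp3 (18.3 ± 14.7, mean ± SD, n = 3) and wild type CD45 single positive libraries 1.14, 24.8 and 1.08 CPM (9.01 ± 13.7, n = 3). All 3 double positive libraries were above the CD45 single positive ones other than replicate 2. The libraries labelled Cdh2-cKO were lower, at 2.15, 1.17 and 1.93 CPM in double positive cells and 2.03, 0.535 and 0.576 CPM in CD45 single positive cells. In CD45- cells, Foxp3 stood at 0.0511 and 2.21 CPM in wild type TdT single positive libraries and at 0.960 and 0 CPM in those labelled Cdh2-cKO. Double negative cells held 0, 0 and 1.43 CPM in the wild type and 0.263, 0.242 and 0.5002 CPM in the Cdh2-cKO group. The 2 wild type CD45- libraries above 1 CPM, TdT single positive replicate 2 and double negative replicate 3, also held 81.2 and 337 CPM of Ptprc, the most of the wild type CD45- libraries. Of the TdT single positive Cdh2-cKO libraries, replicate 1 with 0.960 CPM of Foxp3 held 163.9 CPM of Ptprc and replicate 2, with no Foxp3 count, held 89.9 CPM. The double negative Cdh2-cKO libraries held 5, 5 and 12 Foxp3 counts beside 9.30, 15.65 and 10.8 CPM of Ptprc. Their 1.55 to 4.63 Foxp3 counts per 100 Ptprc counts were above every CD45 single positive library (at most 1.36). The part of leukocytes in the Foxp3 counts of CD45- libraries was not tested.

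Ikzf2 differed from Foxp3 in that CD45- cells held it at a similar level. Its levels in wild type cells were 10.1, 28.9 and 48.7 CPM (double positive), 6.68, 63.0 and 4.15 CPM (CD45 single positive), 6.84 and 12.2 CPM (TdT single positive) and 9.88, 11.1 and 10.96 CPM (double negative). In cells labelled Cdh2-cKO they were 7.56, 6.55 and 3.43 CPM, 9.23, 5.35 and 4.55 CPM, 9.08 and 8.57 CPM, and 12.6, 8.63 and 9.04 CPM in the same order. The CD45- libraries thus covered a narrow range, 6.84 to 12.6 CPM, and the 3 libraries above that range were 2 wild type double positive ones and CD45 single positive replicate 2.

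Il2ra, the IL-2 receptor chain, followed Foxp3. Wild type double positive libraries held 15.7, 45.9 and 64.5 CPM, and CD45 single positive libraries 7.88, 60.2 and 6.41 CPM. With the Cdh2-cKO label the values were 9.55, 4.90 and 9.68 CPM in double positive cells and 9.39, 5.95 and 3.01 CPM in CD45 single positive cells. The 10 CD45- libraries ranged from 0.339 to 5.73 CPM, which overlapped the lowest CD45+ libraries.

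Tnfrsf4, which encodes OX40, is one of 3 TNF receptor superfamily members in the set. Its values in wild type double positive cells were 23.4, 85.5 and 199 CPM (103 ± 89.1, n = 3), against 11.6, 119 and 7.65 CPM in wild type CD45 single positive cells. The Cdh2-cKO groups held 15.8, 11.8 and 8.60 CPM and 18.1, 5.68 and 3.71 CPM, with no library as high as the lowest wild type double positive one. CD45- libraries held 0.678 to 12.1 CPM, the highest in TdT single positive wild type replicate 2. Tnfrsf18, which encodes GITR, had 15.8, 40.01 and 78.9 CPM in wild type double positive and 13.9, 84.4 and 4.53 CPM in wild type CD45 single positive libraries. With the Cdh2-cKO label it had 12.4, 14.5 and 4.87 CPM and 12.1, 7.89 and 1.99 CPM, and CD45- libraries held 0.578 to 5.27 CPM. Tnfrsf9, which encodes 4-1BB, differed from these 2 genes in that its levels in leukocytes and stroma overlapped broadly. It stood at 85.9, 86.9 and 151 CPM (wild type double positive), 75.7, 235 and 31.8 CPM (wild type CD45 single positive), 88.0, 97.4 and 65.2 CPM (Cdh2-cKO double positive) and 39.8, 84.5 and 64.2 CPM (Cdh2-cKO CD45 single positive). Double negative cells, with 0.184 to 5.67 CPM of Cd3e, had 99.6, 83.5 and 49.1 CPM of Tnfrsf9 in the wild type and 129, 65.4 and 199 CPM with the Cdh2-cKO label. The 4 TdT single positive libraries were between 15.9 and 70.8 CPM.

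Ccr8 and Klrg1 were low in CD45- cells. Ccr8 stood at 3.27, 13.4 and 27.1 CPM in wild type double positive libraries and at 1.26, 24.8 and 0.269 CPM in wild type CD45 single positive libraries. The Cdh2-cKO groups held 2.76, 1.41 and 0.301 CPM and 2.14, 1.27 and 0.576 CPM. The 10 CD45- libraries ranged from 0 to 1.10 CPM of Ccr8. The highest 3, TdT single positive wild type replicate 2, TdT single positive Cdh2-cKO replicate 1 and double negative wild type replicate 3, had 28, 32 and 20 counts and were above the CD45+ libraries at 0.269, 0.301 and 0.576 CPM, and the other 7 had at most 2 counts. Klrg1 stood at 7.25, 20.9 and 46.7 CPM in wild type double positive and 3.19, 31.3 and 4.42 CPM in wild type CD45 single positive libraries, and at 4.03, 1.89 and 0.661 CPM and 5.49, 1.67 and 0.768 CPM in the Cdh2-cKO groups. No CD45- library exceeded 0.826 CPM of Klrg1. For Foxp3, Il2ra, Tnfrsf18, Tnfrsf4, Ccr8 and Klrg1 alike, the highest 4 of the 22 libraries were the 3 wild type double positive ones and CD45 single positive replicate 2. The share of all genes with the same highest 4 was not computed, so this pattern is not a result about these genes. Cd3e stood at 9.21, 35.7 and 89.6 CPM in these double positive libraries and at 514 CPM in replicate 2.

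**Figure D1:**
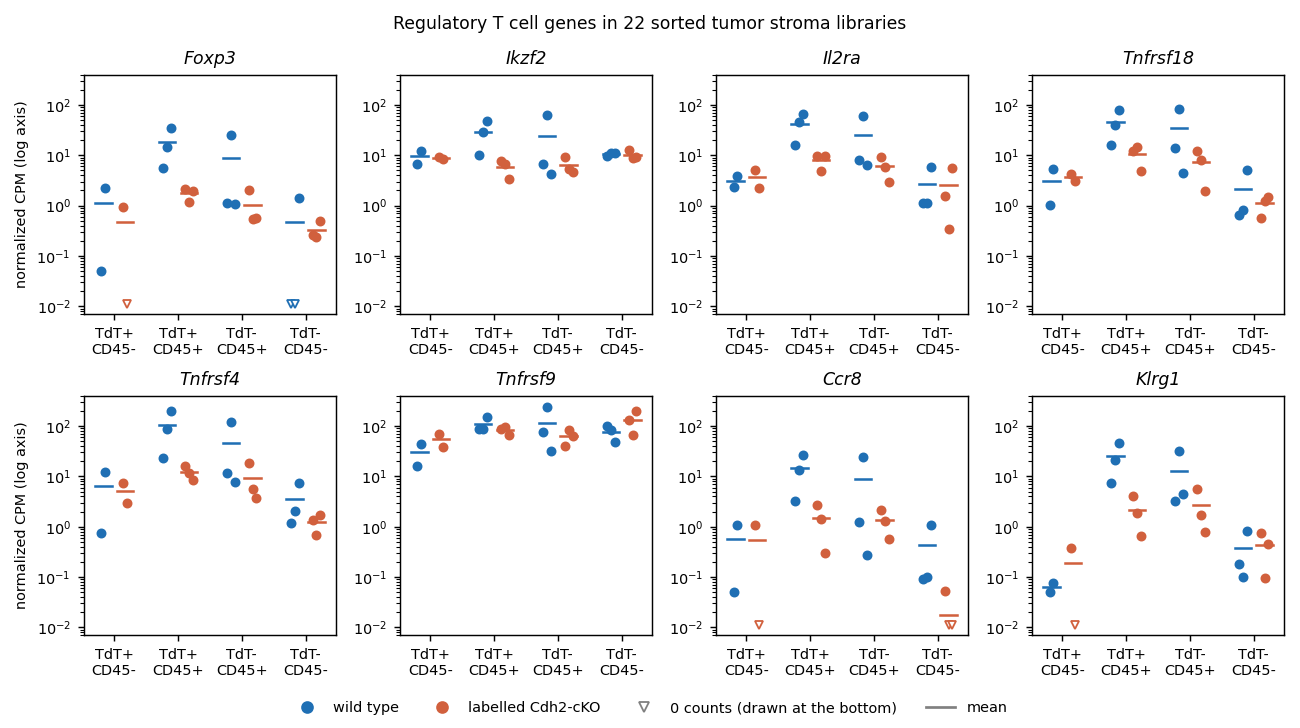
Normalized CPM of the 8 genes (log axis) in each library by sorted population, with wild type in blue, libraries labelled Cdh2-cKO in orange, group means as lines and libraries with 0 counts as open triangles. Foxp3 lies between 5.65 and 34.4 CPM in wild type double positive (TdT+ CD45+) cells, while Ikzf2 stays between 6.84 and 12.6 CPM in CD45- cells.

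Levels were compared between genes per kilobase of exons. In wild type double positive cells, mean CPM per kb was highest for Tnfrsf4 (75.2), followed by Tnfrsf9 (39.6), Tnfrsf18 (29.5), Klrg1 (17.6), Ccr8 (12.7), Il2ra (8.25), Foxp3 (4.58) and Ikzf2 (2.52). The SD of each gene's CPM over the 3 libraries ranged from 34.5% to 86.8% of its mean, so neighbours in this order were not separated beyond their spread. In the Cdh2-cKO double positive cells Tnfrsf9 came first (30.7), followed by Tnfrsf4 (8.86) and Tnfrsf18 (6.93).

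CD45+ cells were compared with CD45- cells as the mean of their groups, with edgeR's quasi-likelihood test and Benjamini-Hochberg adjustment over all 15043 genes tested. A gene was called at an adjusted p of at most 0.05. In this comparison 6 of the 8 genes rose, while 63.7% of all genes tested were called (32.6% higher and 31.1% lower, and 24.7% with an absolute log2 fold change of at least 2). Klrg1 had the greatest difference (log2 fold change 4.90 ± 0.71 SE, adjusted p = 1.44e-05), followed by Ccr8 (4.07 ± 0.93, adjusted p = 0.000986) and Tnfrsf18 (3.01 ± 0.57, adjusted p = 0.000201). Tnfrsf4 (2.95 ± 0.62), Foxp3 (2.92 ± 0.83, adjusted p = 0.00536) and Il2ra (2.35 ± 0.53) rose as well. Klrg1 passed the filter of 1 CPM only through CD45+ libraries, since no CD45- library exceeded 0.826 normalized CPM. Its call and rank are thus not independent of that filter. Ikzf2 (0.39 ± 0.39, adjusted p = 0.392) and Tnfrsf9 (0.49 ± 0.31, adjusted p = 0.176) were not called. The median of the 8 genes was 2.93, against 0.06 over all genes tested, and the ranges of the CD45+ and CD45- libraries overlapped for all 8 genes (3.7% of all genes had every CD45+ library above every CD45- library). The same number of genes, 6, was called without CD45 single positive wild type replicate 2 and double negative wild type replicate 3, with Foxp3 at 3.66 and Ikzf2 at -0.21. In these bulk libraries, fewer cells of a type and less RNA per cell cannot be told apart.

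The comparison of double positive with CD45 single positive cells asks whether CD45+ cells with a history of Osx promoter activity differ from other tumor leukocytes. None of the 8 genes was called by edgeR over both genotypes, in the wild type, or in the Cdh2-cKO groups. Over both genotypes the log2 differences lay between 0.06 (Ikzf2) and 0.87 ± 0.98 (Foxp3), all above 0, with a median of 0.45 against -0.06 over all genes. Single libraries of the wild type set these values. Without CD45 single positive replicate 2 Foxp3 was at 2.38 ± 0.96, Ccr8 at 2.21 ± 0.92, Tnfrsf4 at 1.91 ± 0.69 and Ikzf2 at 1.16 ± 0.35, and without double positive replicate 3 Ikzf2 (-0.23) and Klrg1 (-0.0785) were below 0, with an adjusted p of 1 for each. With all libraries, Tnfrsf4 was at 0.78 ± 0.73, Il2ra at 0.57 ± 0.65, Tnfrsf18 at 0.46 ± 0.67, Ccr8 at 0.45 ± 0.96 and Klrg1 at 0.33 ± 0.71, and each had an adjusted p of 1. The background of this comparison was equally low, since 0.00665% of the genes tested were called. That single gene, named here after its value was seen, was Duoxa2, the maturation factor of the oxidase DUOX2 (3.27 ± 0.36, adjusted p = 0.000917). At an unadjusted p under 0.05, edgeR passed 610 genes over both genotypes, 669 in the wild type and 723 in Cdh2-cKO, none of them a member. voomWithQualityWeights and DESeq2 also called none of the 8 members.

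In the wild type the member differences were 1.02 ± 1.35 for Foxp3, 1.16 ± 1.03 for Tnfrsf4, 0.94 ± 0.99 for Klrg1, 0.76 ± 0.91 for Il2ra and 0.74 ± 1.33 for Ccr8. Tnfrsf18 (0.39 ± 0.94), Ikzf2 (0.25 ± 0.72) and Tnfrsf9 (-0.08 ± 0.58) were nearer to 0. Foxp3, Klrg1, Ccr8 and Tnfrsf4 belong to a list that the study drew from this experiment, without naming Cdh2-cKO mice. Their direction here is thus not independent evidence. CD45 single positive replicate 2 set the size of these differences. Without it every double positive library was above both remaining CD45 single positive libraries for 8 of 8 members, a pattern that 7.76% of all genes tested showed, and the log2 differences became 4.26 ± 1.51 for Ccr8, 4.04 ± 1.55 for Foxp3, 3.42 ± 1.11 for Tnfrsf4 and 2.44 ± 0.55 for Ikzf2. All had an adjusted p of 1 in that fit too. With all 3 CD45 single positive libraries, the ranges overlapped for all 8 members (1.72% of all genes had every double positive library above). Cd3e, whose own wild type difference was -1.96 ± 1.48 (adjusted p = 1), moved with the choice of libraries: the 3 double positive libraries held 9.21, 35.7 and 89.6 CPM and the CD45 single positive ones 5.83, 514 and 3.18 CPM.

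The study does not mention Cdh2-cKO libraries, so whether they entered its list is not known. The Cdh2-cKO libraries gave differences between -0.27 ± 1.03 (Klrg1) and 0.72 ± 1.43 (Foxp3), with a median of 0.39 against 0 over all genes. Tnfrsf18 was at 0.53 ± 0.96, Tnfrsf9 at 0.41 ± 0.58, Tnfrsf4 at 0.40 ± 1.04, Il2ra at 0.39 ± 0.92, Ccr8 at 0.16 ± 1.398 and Ikzf2 at -0.13 ± 0.74. The ranges of the populations overlapped for all 8 members, while 9.14% of all genes had every double positive library above every CD45 single positive one. The difference between genotypes in this contrast was tested as an interaction, and 0 of 8 members and 0 of 15043 genes were called (656 genes at an unadjusted p under 0.05, and 0 genes by DESeq2). Its values ran from -1.22 ± 1.43 for Klrg1 to 0.49 ± 0.82 for Tnfrsf9. Without CD45 single positive wild type replicate 2 they ran from -4.10 ± 1.82 for Ccr8 to -0.60 ± 0.70 for Tnfrsf9, with Foxp3 at -3.33 ± 1.88, still with none called. Without double positive wild type replicate 3 Klrg1 alone was below 0.

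**Figure D2:**
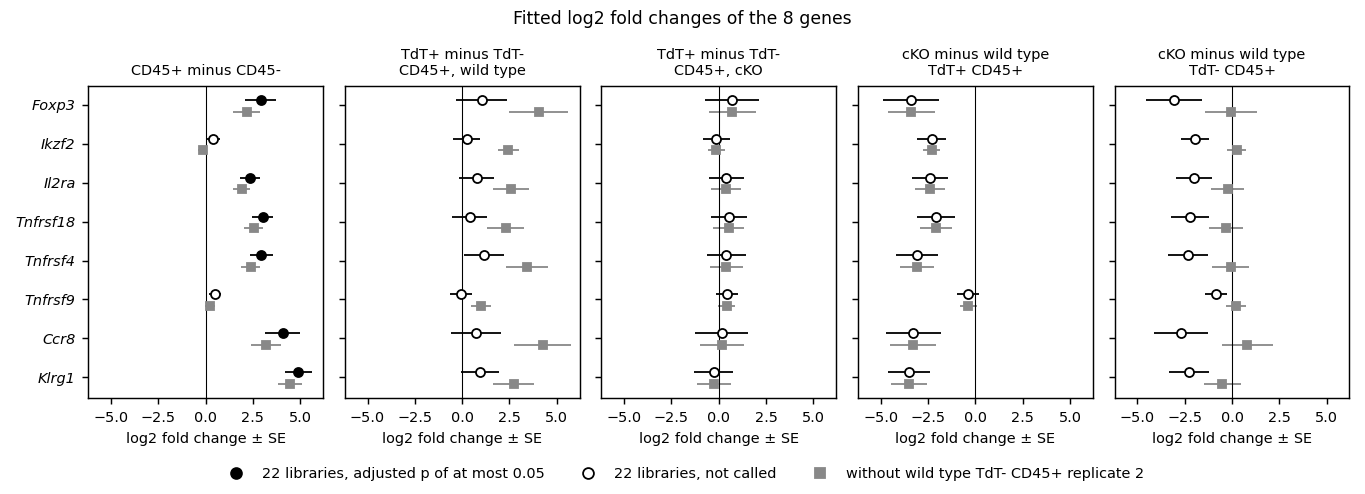
Log2 fold changes ± SE of the 8 genes in 5 comparisons, from edgeR on all 22 libraries (circles, filled where called) and without CD45 single positive (TdT- CD45+) wild type replicate 2 (grey squares). The 6 called values are all in CD45+ against CD45- cells, and for Foxp3 in wild type cells the TdT+ minus TdT- difference goes from 1.02 to 4.04 without that library.

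Double positive cells labelled Cdh2-cKO had lower values than wild type ones for every member, although none was called. The log2 differences were -3.50 ± 1.10 for Klrg1, -3.39 ± 1.48 for Foxp3, -3.29 ± 1.46 for Ccr8, -3.08 ± 1.11 for Tnfrsf4, -2.39 ± 0.95 for Il2ra, -2.32 ± 0.76 for Ikzf2 and -2.09 ± 0.98 for Tnfrsf18. Tnfrsf9 was at -0.37 ± 0.58, and the median of the 8 genes was -2.74 against 0.01 over all genes. For 7 of 8 members, all but Tnfrsf9, every wild type library was above every Cdh2-cKO library, which 6.06% of all genes tested showed. These 7 members had an unadjusted p between 0.00525 (Klrg1) and 0.0487 (Tnfrsf18), but the adjusted p was 1 for each, and 515 of 15043 genes passed an unadjusted p under 0.05. DESeq2 called 1 gene in this comparison and voomWithQualityWeights 0, none of them a member. General T cell transcripts moved in the same direction. Cd3e was at -2.65 ± 1.54, and the 19 pan T cell genes had a median of -2.65 with 0 of 19 called and 0 of 19 above 0. The summed level of these 19 genes was 124.7 to 947 CPM in wild type and 53.8 to 119.7 CPM in Cdh2-cKO double positive cells, and its part in the members' values was not tested.

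In CD45 single positive cells the genotype comparison rested on replicate 2 of the wild type. With it, the members were at -0.86 ± 0.58 (Tnfrsf9) to -3.08 ± 1.48 (Foxp3), with none called, an adjusted p of 0.439 to 0.641 and a median of -2.25. The ranges of the genotypes overlapped for all 8 members, whereas 5.91% of all genes had every wild type library above. Without replicate 2, Foxp3 was at -0.06 ± 1.39, Il2ra at -0.22 ± 0.87, Tnfrsf4 at -0.06 ± 0.97 and Klrg1 at -0.51 ± 0.98, and Ccr8 (0.81 ± 1.36), Ikzf2 (0.24 ± 0.51) and Tnfrsf9 (0.23 ± 0.53) turned above 0. Both genotype comparisons are made on libraries whose Cdh2 counts go against the labels in CD45- cells.

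To ask whether the members differed from T cell content, and not only with it, their counts were set against Cd3e counts of the same library. Wild type double positive libraries held 61.3, 41.6 and 38.3 Foxp3 counts per 100 Cd3e counts (47.1 ± 12.4, n = 3) and wild type CD45 single positive libraries 19.6, 4.82 and 33.9 (19.4 ± 14.5, n = 3). These ranges did not overlap, a pattern that 0.419% of all genes tested showed with every double positive library above. Most genes do not follow Cd3e, and their median log2 difference relative to Cd3e was -1.72 in the wild type. The share thus does not describe T cell genes, for which it was not computed. In the Cdh2-cKO groups the Foxp3 values were 19.1, 19.7 and 45.7 in double positive and 13.6, 14.8 and 36.0 in CD45 single positive cells, which did overlap (0.0997% of all genes had every double positive library above). CD45 single positive wild type replicate 2 had the lowest value of the 12 libraries for every one of the 8 members. It held 8979 Cd3e counts, the denominator of these ratios, against at most 1698 in the others. The share of all genes with their lowest value there was not computed, so this is not a result about the members.

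Ccr8 showed the same separation in the wild type, with 35.5, 37.7 and 30.3 counts per 100 Cd3e counts in double positive cells against 21.6, 4.81 and 8.47 in CD45 single positive cells, so that 2 of 8 members, Foxp3 and Ccr8, had ranges that did not overlap, and both are in the list that the study chose on these libraries. It did not do so in the Cdh2-cKO groups, with 24.5, 23.8 and 7.14 against 14.3, 35.2 and 36.0. Tnfrsf4 was even over the wild type double positive libraries, at 253.5, 239.7 and 222.1 counts per 100 Cd3e counts, and stood at 199.0, 23.1 and 240.7 in CD45 single positive cells. Klrg1 was at 78.7, 58.7 and 52.1 against 54.6, 6.09 and 139.0 in the wild type. In Cdh2-cKO cells Klrg1 was at 35.8, 31.97 and 15.7 against 36.6, 46.3 and 48.0. There all double positive values were below all CD45 single positive ones (0.924% of all genes), but 35.8 and 36.6 were nearly equal. Replicate 3 rested on 11 Klrg1 and 70 Cd3e counts in double positive cells and on 12 and 25 in CD45 single positive cells. The remaining members overlapped in both genotypes.

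The model with Cd3e counts as the offset called 0 of 8 members and 0 of 15043 genes over both genotypes (398 genes at an unadjusted p under 0.05). Foxp3 was at 0.86 ± 1.14 (adjusted p = 0.507), Ccr8 at 0.49 ± 1.13, Tnfrsf4 at 0.36 ± 1.11, Tnfrsf18 at 0.03 ± 1.11, Il2ra at 0.02 ± 1.11, Klrg1 at -0.35 ± 1.12, Ikzf2 at -0.50 ± 1.11 and Tnfrsf9 at -0.77 ± 1.14. The median over all genes was -1.33 in this fit, since most genes do not follow Cd3e. The standard errors of the members were close to one another, and every ratio carries the spread of the Cd3e counts. The smallest adjusted p of any gene in this edgeR fit was 0.441. The lack of calls thus does not show that the members follow Cd3e. voomWithQualityWeights with Cd3e as library size called Foxp3 higher (0.71 ± 0.32, adjusted p = 0.0252) and Tnfrsf9 lower (-1.44 ± 0.27, adjusted p = 7.14e-08), but in that fit 0.465% of all genes were called higher and 95.4% lower. An exact two-sided permutation test of the log2 ratio, with populations permuted within genotype, gave p = 0.08 for Foxp3 (difference 1.01, with 1.63 in the wild type and 0.39 in Cdh2-cKO) and p between 0.24 (Tnfrsf4) and 0.98 (Klrg1) for the other 7 members. These 8 p-values are unadjusted, and the smallest that the 400 permutations can give is 0.005.

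**Figure D3:**
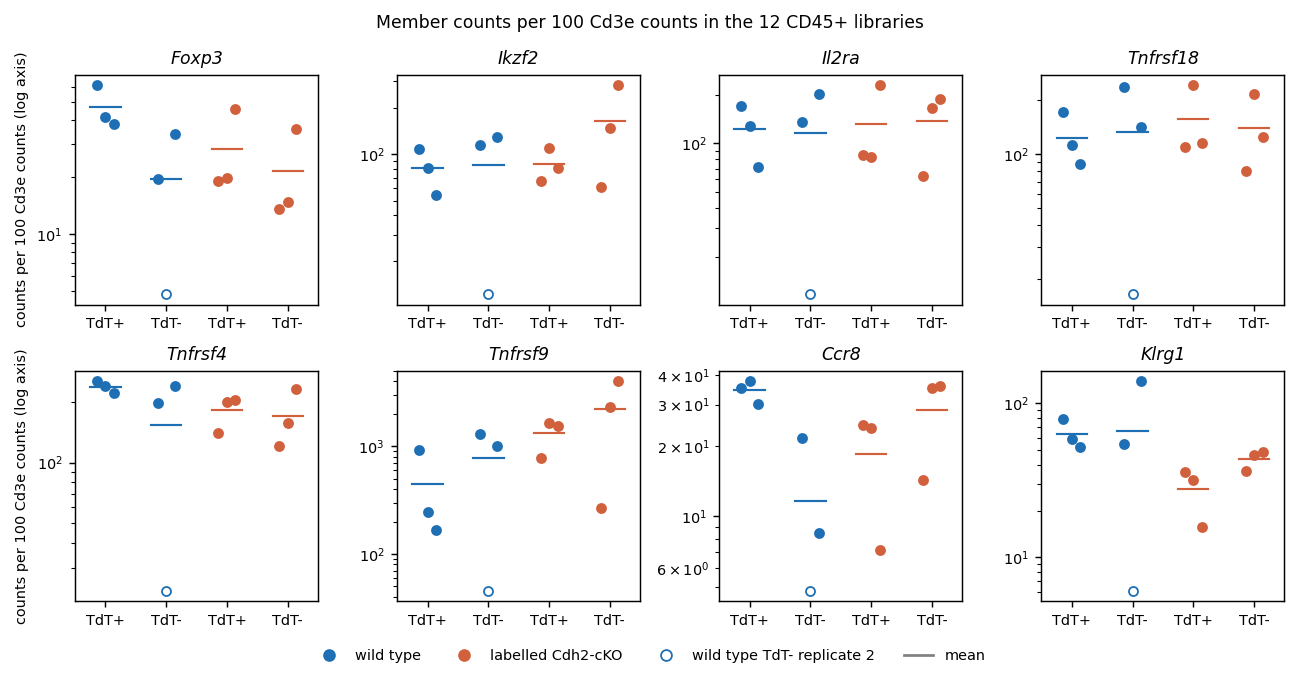
Counts of each member per 100 Cd3e counts (log axis, scaled per gene) in the 12 CD45+ libraries, for TdT+ (double positive) and TdT- (CD45 single positive) cells of each genotype, with means as lines. The wild type TdT+ values of Foxp3 (38.3 to 61.3) lie above the TdT- values (4.82 to 33.9). The open circle, CD45 single positive wild type replicate 2, is the lowest point in every panel and the library with the most Cd3e counts, the denominator.

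The members were not equally bound to one another. Over the 22 libraries the pairwise Pearson r of log2 CPM among the 8 genes ranged from 0.31 to 0.96 (28 pairs, median 0.86), over the 12 CD45+ libraries from 0.53 to 0.98 (median 0.91), and over the 10 CD45- libraries from -0.32 to 0.87 (median 0.46). Libraries of one population share their sort and cell makeup, so these values are descriptions. The genes most like Foxp3 over 22 libraries were Pdcd1 (r = 0.958), Izumo1r (0.956), Ctla4 (0.953), Tnfrsf4 (0.934), Cd3e (0.926), Il2rb (0.918), Ccr8 (0.914), Il2ra (0.909), Tnfrsf18 (0.904) and Icos (0.903). Of these 10, 4 are members. Klrg1 ranked 29th (0.874) of 15042 genes, Ikzf2 1976th (0.595) and Tnfrsf9 4370th (0.394). Within the 12 CD45+ libraries the order changed to Il2ra (0.979), Tnfrsf4 (0.978), Pdcd1 (0.943), Icos (0.942), Ltb (0.940), Izumo1r (0.938), Penk (0.937), Trac (0.937), Ikzf2 (0.931) and Ctla4 (0.930). Ikzf2 thus ranked 9th where stroma was left out, and Tnfrsf9 598th (0.663).

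The balance of Klrg1 and Foxp3 varied between libraries. Among those with at least 20 Foxp3 counts, wild type double positive cells held 128.4, 140.9 and 135.8 Klrg1 counts per 100 Foxp3 counts, and CD45 single positive replicate 2 held 126.3. TdT single positive wild type replicate 2 held 2 Klrg1 counts beside 57 Foxp3 counts (3.51 per 100), and TdT single positive Cdh2-cKO replicate 1 held 11 beside 28 (39.3 per 100). Double negative wild type replicate 3 had 15 beside 26 (57.7 per 100), and the remaining CD45+ libraries ranged from 34.4 to 410.0. Of the 3 CD45- libraries, 1, TdT single positive wild type replicate 2 with its 2 Klrg1 counts, thus lay outside the range of the CD45+ libraries. For Ccr8 the same 3 CD45- libraries held 49.1, 114.3 and 76.9 counts per 100 Foxp3 counts, all within the range of the CD45+ libraries, 15.6 to 128.2.

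**Figure D4:**
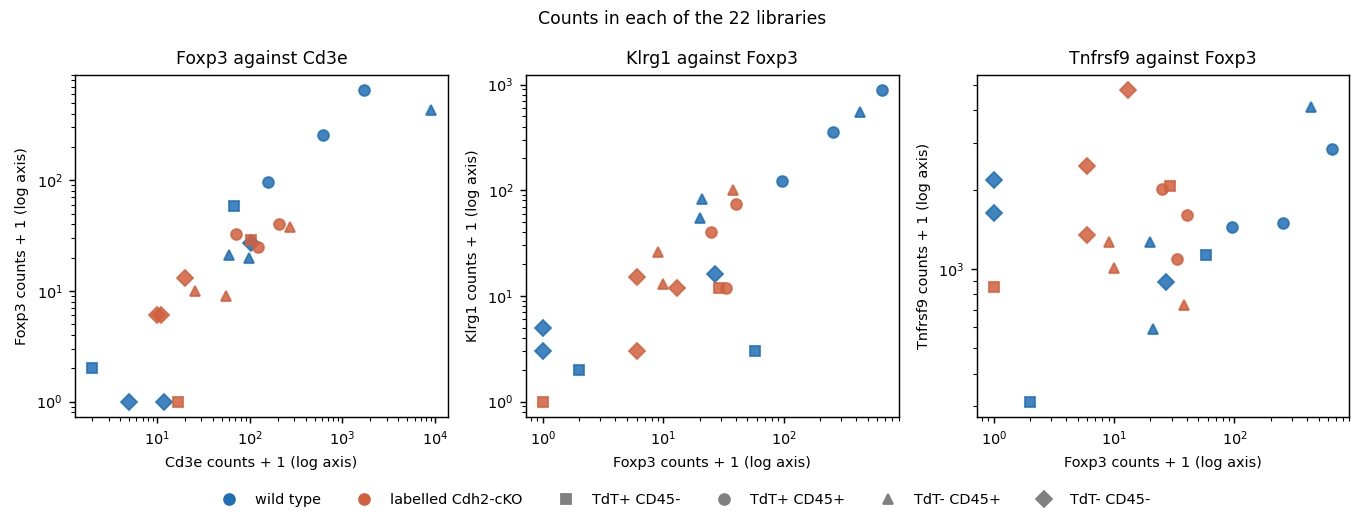
Counts plus 1 on log axes in the 22 libraries, for Foxp3 against Cd3e, Klrg1 against Foxp3 and Tnfrsf9 against Foxp3, with genotype by color and population by marker. Klrg1 stands at 2 counts beside 57 Foxp3 counts in a wild type TdT+ CD45- library, and Tnfrsf9 is high in double negative libraries with few Foxp3 counts.

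Of 9 genes for ligands of the members, 8 were tested, and in CD45+ against CD45- cells 3 rose and 3 fell, with a median of 0.91, where 32.6% of all genes tested rose and 31.1% fell (median 0.06). Cdh1, which encodes the KLRG1 ligand E-cadherin, rose (4.07 ± 0.65, adjusted p = 3.46e-05) and stood at 85.2 to 365.9 CPM in CD45+ libraries and 0.817 to 117 CPM in CD45- libraries. The other KLRG1 ligands Cdh2 (-3.94 ± 0.41, adjusted p = 2.97e-07) and Cdh4 (-4.85 ± 0.74, adjusted p = 2.28e-05) fell. Cdh4 passed the filter on low counts only through CD45- libraries, as no CD45+ library exceeded 0.269 CPM. Tnfsf4, the OX40 ligand, rose from a low level (1.64 ± 0.64, adjusted p = 0.0328, 0.269 to 2.48 CPM in CD45+ cells). Tnfsf9, the 4-1BB ligand, rose by less (0.86 ± 0.30, adjusted p = 0.0191) and had 55.9 to 264 CPM in CD45+ and 48.7 to 105 CPM in CD45- libraries. Tnfsf18, the GITR ligand, fell (-2.19 ± 0.40, adjusted p = 0.000121), so that its CPM was highest in wild type TdT single positive cells at 10.01 and 13.99. The CCR8 ligands Ccl1 (0.95 ± 0.98) and Ccl8 (1.04 ± 0.64) were not called, with Ccl8 between 28.2 and 1131 CPM over the 22 libraries. Il2 had at most 1.15 CPM and was not tested. Between double positive and CD45 single positive cells 0 of the 8 tested ligands were called. Cdh2 had the lowest p of these (-1.30 ± 0.57, adjusted p = 1 by edgeR).

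A further 30 genes of the regulatory T cell program were counted, of which 29 were tested. In CD45+ against CD45- cells 20 rose and 3 fell, with a median of 1.10, beside 32.6% of all genes tested that rose and 31.1% that fell. Among those that rose were the coreceptors Icos (4.09 ± 0.83, adjusted p = 0.000342) and Ctla4 (3.74 ± 0.92, adjusted p = 0.00176), the folate receptor family gene Izumo1r (3.65 ± 0.96) and the IL-2 receptor chain Il2rb (3.73 ± 0.84). Those that fell were Plagl1, a zinc finger factor (-3.94 ± 0.53), Lrrc32, which encodes the TGF-beta-anchoring protein GARP (-3.65 ± 0.51), and the IL-33 receptor gene Il1rl1 (-2.35 ± 0.38). All 3 are also expressed outside T cells, and Lrrc32 reached 115.6 CPM in TdT single positive wild type cells against at most 8.34 CPM in any CD45+ library. Between double positive and CD45 single positive cells 0 of 29 were called over both genotypes, with a median of 0.07. The smallest unadjusted p-values by edgeR belonged to the neuropeptide precursor Penk (1.35 ± 0.53) and the Ikaros family factor Ikzf4 (1.10 ± 0.59), followed by Il1rl1 (-0.75 ± 0.51), Il2rb (-0.95 ± 0.95), Stat5b (-0.22 ± 0.22) and Tgfb1 (0.24 ± 0.26), all with an adjusted p of 1. In the genotype comparison of double positive cells 0 of the 29 genes were called, and their median was -0.09. The list holds genes that many leukocytes express beside T cell genes. Among the genes named above, Izumo1r was at -3.42 ± 1.63, Icos at -3.22 ± 1.38, Ctla4 at -3.01 ± 1.54, Il2rb at -2.80 ± 1.42 and Penk at -2.38 ± 0.76, each with an adjusted p of 1 by edgeR.

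The 19 pan T cell genes gave the T cell background of these values. In CD45+ against CD45- cells 17 rose and 1 fell, Thy1 (-5.06 ± 0.63), which fibroblasts also express and which reached 480 CPM in TdT single positive wild type cells. Between double positive and CD45 single positive cells none of the 19 was called and none was above 0 over both genotypes (median -0.93), in contrast to the members' median of 0.45. The genes with the smallest p were Cd8b1 (-1.67 ± 1.14), Trbc2 (-1.27 ± 0.99), Trbc1 (-1.21 ± 0.97), Thy1 (-0.93 ± 0.77), Zap70 (-1.16 ± 0.98) and Lck (-1.10 ± 0.94), each with an adjusted p of 1. The same library stood apart here. The pan T cell sum was 4527 CPM in CD45 single positive wild type replicate 2 and 62.3 and 76.7 CPM in the other 2 wild type CD45 single positive libraries. The pan T cell median was not computed without replicate 2. In the Cdh2-cKO groups alone the pan T cell median was -0.02 and that of the members 0.39. NK cells can also express Klrg1. NK and cytotoxic markers summed to 43.2 to 277 CPM in wild type double positive cells and to 38.2, 52.1 and 1779 CPM in CD45 single positive cells, with 0 of 8 called between them, and their part in the Klrg1 values was not tested.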

How the data were processed

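RNA from sorted tumor stroma was converted to cDNA with the SMARTer Ultra Low kit, amplified and sequenced as 50-base single reads, and the 22 libraries were grouped from their titles by sorted population and genotype. Per the labels and the study's methods, the authors aligned reads to GRCm38 (Ensembl release 76) with STAR 2.0.4b and counted uniquely aligned, unambiguous reads per gene with Subread featureCounts. The deposited counts are whole and unnormalized, and the CPM and RPKM columns beside them, which were not used, can be recomputed from the counts (largest relative deviation 5.12e-14). Amplified reads carry no molecular identifiers, so ratios of counts are not ratios of molecules.

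rRNA genes (355) were left out, and genes above 1 CPM in at least 2 libraries were kept (15043 genes, all 8 members among them). TMM factors, glmQLFit and glmQLFTest of edgeR 4.0.16 (R 4.3.3) were applied to 8 group means over 22 libraries, with Benjamini-Hochberg adjustment over all genes tested and calls at an adjusted p of at most 0.05. Each SE given for edgeR was derived as the absolute log2 fold change divided by the square root of the test's F statistic. For ratios to Cd3e, the log of the Cd3e count replaced the library size in the 12 CD45+ libraries, and the exact permutation test used log2 ratios with 0.5 added to each count. Printed CPM are scaled by TMM factors, and likeness was Pearson's r of log2 CPM with a prior count of 2. Ratios per library were given where the denominator had at least 20 counts. Alternatives were limma 3.58.1 (voomWithQualityWeights), DESeq2 1.42.0, RLE factors, no filter, other denominators, other sets of libraries, a replicate block and a minimum absolute log2 fold change of 2. Fits were also run on simulated data, in which the Cd3e denominator followed library size. Real Cd3e counts ran from 25 to 8979 in the CD45+ libraries, so that run cannot show the power of the Cd3e-relative fit. With 16594228 to 26784003 counts per library, a gene at 1 CPM rests on few reads, and floors cover counting error only.

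The members, lists and tests were chosen with earlier results of these data known. The genes named are the members, Cd3e, Ptprc, Sp7 and Cdh2, all ligands, the 6 genes of the program and pan T cell lists with the smallest p in double positive against CD45 single positive cells, those called against their list's direction, and the 10 genes most like Foxp3. Icos, Ctla4, Izumo1r and Il2rb were named as genes most like Foxp3. Marker Trdc was not analysed here. Since 4 wild type and 6 Cdh2-cKO mice gave 11 libraries of each genotype, some libraries must share mice. The labels do not say which, and the main fits treated all libraries as independent. The p-values measure the spread between these libraries.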

Additional observations from a re-analysis of the deposited data

How the results depend on the processing

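The number of members called was the same under every alternative run, 6 in CD45+ against CD45- cells and 0 in the other comparisons, leaving out any 1 library included, with 1 exception. That exception was double positive against CD45 single positive cells relative to Cd3e, where voomWithQualityWeights called 2 members (Foxp3 0.71, Tnfrsf9 -1.44). Of 1784 member values under alternatives, 85 changed sign, none of them a called one. The settings with the most such changes left out double positive wild type replicate 3 (10 values) or CD45 single positive wild type replicate 2 (9 values). Whether replicate numbers pair the libraries was not settled. Same-numbered libraries of the wild type correlated at -0.294 to 0.593 in their deviations from group means (4 of 15 pairs over 0.1, median 0.009). Those of Cdh2-cKO correlated at -0.132 to 0.175 (6 of 15, median 0.054). Differently numbered libraries had medians of -0.031 in the wild type and -0.014 in Cdh2-cKO, over 30 pairs each. The main fits used no pairing.

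Values that changed sign under another test, block or set of libraries were as follows. Double positive against CD45 single positive, wild type: Tnfrsf9 was 0.93 by voomWithQualityWeights, 0.34 with the replicate block, 0.0093 in the CD45+ libraries alone and 1.02 without the 2 libraries that stand apart (an alternative chosen after seeing the data). In Cdh2-cKO, Ccr8 was -0.0603 with the replicate block and Klrg1 0.0835 by voomWithQualityWeights. For the difference between genotypes, Tnfrsf18 was -1.16 and Tnfrsf9 -0.45 by voomWithQualityWeights, and -1.79 and -0.61 without those 2 libraries. In CD45+ against CD45- cells, Ikzf2 was -0.12 and -0.21 under the same 2 settings. In Cdh2-cKO against wild type, the replicate block gave Ccr8 0.25 in double positive cells, and Foxp3 0.34, Tnfrsf4 0.30, Ccr8 1.38 and Klrg1 0.31 in CD45 single positive cells. There, Ccr8 was also 0.32 by voomWithQualityWeights, and without the 2 libraries Ikzf2 was 0.24, Tnfrsf9 0.21 and Ccr8 0.82. Relative to Cd3e, Il2ra was -0.48 and Tnfrsf18 -0.47 by voomWithQualityWeights, Klrg1 0.0163 with the replicate block and 0.0367 in the permutation test, and with Ptprc as denominator Ikzf2 was 0.60, Tnfrsf9 0.49 and Klrg1 0.84. The cause was not tested.

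Leaving out 1 library at a time, values in double positive against CD45 single positive cells ranged over both genotypes from -0.23 to 1.16 (Ikzf2), -0.0574 to 0.71 (Tnfrsf9) and -0.0785 to 1.22 (Klrg1). In the wild type they ranged from -0.34 to 2.44 (Ikzf2), -0.30 to 2.29 (Tnfrsf18), -0.53 to 1.01 (Tnfrsf9) and -0.0698 to 4.26 (Ccr8), and in Cdh2-cKO from -0.35 to 0.24 (Ikzf2), -0.62 to 0.69 (Ccr8) and -1.04 to 0.85 (Klrg1). Their difference between genotypes ranged from -3.33 to 0.62 (Foxp3), -2.56 to 0.22 (Ikzf2), -2.17 to 0.0868 (Il2ra), -1.76 to 0.83 (Tnfrsf18), -3.02 to 0.21 (Tnfrsf4), -0.60 to 0.94 (Tnfrsf9) and -4.10 to 0.23 (Ccr8). Ikzf2 ranged from -0.15 to 0.52 in CD45+ against CD45- cells. In Cdh2-cKO against wild type CD45 single positive cells, Ikzf2 ranged from -2.45 to 0.24, Tnfrsf9 from -1.31 to 0.23 and Ccr8 from -3.28 to 0.81. Relative to Cd3e, Il2ra ranged from -0.31 to 0.35, Tnfrsf18 from -0.23 to 0.40 and Klrg1 from -0.62 to 0.22.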
